A study of Mus musculus with 12 samples.

Results

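The 10 genes described here encode enzymes that modify collagen: 5 lysyl oxidases (Lox, Loxl1, Loxl2, Loxl3 and Loxl4), 3 lysyl hydroxylases (Plod1, Plod2 and Plod3) and 2 catalytic alpha subunits of collagen prolyl 4-hydroxylase (P4ha1 and P4ha2). They were chosen by name, through the RefSeq identifiers that the array files give for each probe, from 17016 genes on the array. The 10 genes had 13 probes, with a pair of probes each for Loxl4, Plod3 and P4ha1. Each of the 13 probes passed the filter on dim probes, a signal well above background throughout at least 1 group of 3 arrays, so all 10 genes were among the 12438 tested.

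Collagen chains are modified in the endoplasmic reticulum before they fold. Prolyl 4-hydroxylase, built of alpha subunits and the P4hb beta subunit, makes 4-hydroxyproline, which stabilises the triple helix, and the lysyl hydroxylases make hydroxylysine. Both enzyme types need iron, oxygen, 2-oxoglutarate and ascorbate. After secretion, the copper-dependent lysyl oxidases oxidise lysines and hydroxylysines of collagen and lysines of elastin to aldehydes, from which the covalent crosslinks of fibres form. In fibroblasts these enzymes set much of the stiffness and solubility of the matrix that the cells lay down.

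The study compared mouse embryonic fibroblasts that lack focal adhesion kinase (FAK, encoded by Ptk2; the knockout or KO line, ATCC CRL-2644) with cells to which FAK was returned (the rescue line, clone DA2). The rescue line is a single clone, and only rescue medium held hygromycin B and non-essential amino acids, so clone, medium and FAK change together and cannot be told apart. Each line was seeded at 410000 cells (sparse) or 8200000 cells (dense) per 10 cm dish and collected 24 h later. Each of the 4 groups had 3 cultures, 1 on each of 3 days, and each culture was hybridised to 1 one-colour Agilent array from 100 ng of RNA. A level is given here as the log2 of the background-corrected signal minus the log2 of the array's 75th percentile, so levels are relative within an array and a level of one gene is not set against that of another. In such bulk RNA, fewer cells that make a transcript and less transcript per cell cannot be told apart.

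The 12 arrays had 75th percentiles of 294 to 1590 signal units and 23152 to 26183 probes well above background. The authors' deposited value table, used only as a check, disagreed with the scanner files on day 3. Its 8 columns of days 1 and 2 correlated best with their own arrays across genes centred over arrays (r = 0.88 to 0.94), while all 4 columns of day 3 correlated best with the array of the other line at the same density (r = 0.90 to 0.93, against -0.52 to -0.68 for the array of their own label). All values below come from the scanner files as labelled. Of the 2 Ptk2 probes, one lay between 0.03 and 0.50 on all 12 arrays and the other was at 0.65, 0.23 and 1.24 in sparse rescue cells, -0.97, -0.89 and -0.17 in dense rescue cells, and -1.88 to -1.10 on the 6 KO arrays. That second probe was higher in every rescue array than in any KO array of any day, day 3 included. The probes could not be placed against the deletion.

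The fibroblast label was checked against 11 markers. Their summed level, in multiples of an array's 75th percentile, was 780 to 1180 in rescue arrays and 331 to 388 in KO arrays, a sum carried mostly by collagens and Vim, with Thy1 above background on no array outside the dense KO group and Lum on none outside the dense rescue group. Of the 10 fibroblast markers tested, 5 were lower and 4 higher in sparse KO cells (among the latter Dcn by 4.77 and Fn1 by 0.73), and 8 lower and none higher in dense KO cells at an adjusted or unadjusted p under 0.05 (limma). KO arrays also carried all 8 mesothelial markers above background, with a summed level of 163 to 214, against 25.1 to 46 in rescue arrays, where Wt1 and Upk3b were above background on none; Msln, another of these markers, was lower in KO cells (-1.31 and -1.66). Smooth muscle markers summed to 65.5 to 216 in rescue and 113 to 322 in KO arrays, epithelial markers to 0.263 to 1.88 and 8.67 to 26.8, and chondrocyte and osteoblast markers to 4.29 to 11 and 0.758 to 2.37. Endothelial markers summed to at most 0.276, macrophage markers to at most 0.873 and adipocyte markers to at most 0.168, with Pecam1, Tie1, Ptprc, Aif1 and Plin1 above background on no array. The 2 lines thus differ in several cell type markers besides these enzymes, and the part of those differences in the results below was not tested.

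Promoters are shown for the 4 genes that were lower in KO cells at both densities and had an entry in the RefSeq promoter table of build GRCm38.p6, because the alpha subunits and lysyl hydroxylases include known targets of the hypoxia-inducible factors (HIF). Each line gives the 250 bases before the annotated start, read 5′ to 3′ on the strand of the gene: chr11:54100674-54100923, plus strand, for P4ha2, chr4:147936777-147937026, minus strand, for Plod1, chr5:136986769-136987018, plus strand, for Plod3, and chr19:42612807-42613056, minus strand, for Loxl4. Capitals mark ACGTG or GCGTG, the core of the HIF response element, on either strand. ACGTG is also part of the E-box CACGTG.
P4ha2: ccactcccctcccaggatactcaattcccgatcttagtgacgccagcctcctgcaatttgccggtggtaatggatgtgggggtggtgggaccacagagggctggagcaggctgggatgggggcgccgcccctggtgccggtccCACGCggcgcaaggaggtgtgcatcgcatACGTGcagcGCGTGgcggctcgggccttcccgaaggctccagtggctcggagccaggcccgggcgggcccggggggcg
Plod1: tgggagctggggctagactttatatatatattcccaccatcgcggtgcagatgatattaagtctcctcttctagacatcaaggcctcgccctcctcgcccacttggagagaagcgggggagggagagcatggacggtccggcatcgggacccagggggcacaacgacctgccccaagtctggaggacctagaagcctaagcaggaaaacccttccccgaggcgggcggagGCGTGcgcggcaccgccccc
Plod3: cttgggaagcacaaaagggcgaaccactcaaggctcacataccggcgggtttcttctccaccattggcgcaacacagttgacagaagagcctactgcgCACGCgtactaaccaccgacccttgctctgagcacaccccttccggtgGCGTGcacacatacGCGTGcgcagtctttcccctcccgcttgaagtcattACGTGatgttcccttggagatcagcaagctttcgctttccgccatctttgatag
Loxl4: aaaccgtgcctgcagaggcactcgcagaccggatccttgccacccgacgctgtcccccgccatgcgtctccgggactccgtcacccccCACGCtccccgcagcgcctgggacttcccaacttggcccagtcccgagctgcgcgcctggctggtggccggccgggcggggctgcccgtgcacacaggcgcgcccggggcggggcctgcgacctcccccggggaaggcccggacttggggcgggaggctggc
The P4ha2 window held 1 ACGTG and 2 GCGTG, the Plod3 window 1 ACGTG and 3 GCGTG, and the Plod1 and Loxl4 windows 1 GCGTG each. P4ha1, the fifth of the 10 genes with an entry, had 1 ACGTG and 2 GCGTG. Of all 32851 promoter windows of the same length in the table, 16.6% held ACGTG, 28.2% held GCGTG and 38.6% held either. The windows of these 5 genes had 55.6% to 76% G and C, against a median of 52.4% over all windows, and the motifs are themselves rich in G and C. A match is a run of letters and was not tested as a binding site.

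The first question of the design is how KO cells differ from rescue cells at the same density. In sparse cells, 8 of the 10 enzyme genes were lower in KO cells, 1 was higher (Loxl2) and 1 did not pass the test (Plod2), at a Benjamini-Hochberg adjusted p under 0.05 from limma over 12438 genes. In dense cells 6 were lower, 4 did not pass, and none was higher at an adjusted or unadjusted p under 0.05. The lines differed widely at all genes: 48.8% of genes tested changed in sparse cells (23.2% higher, 25.6% lower) and 61.6% in dense cells (31.9% higher, 29.7% lower). The median log2 difference of the 10 genes was -1.45 in sparse cells and -1.30 in dense cells, beside 0.03 and 0.08 over all genes tested. The 6 genes lower at both densities were Lox, Loxl3, Loxl4, Plod1, Plod3 and P4ha2. Without the arrays of day 3, on which the deposited table disagrees, 8 of the 10 genes were lower in sparse and 7 in dense KO cells, and none was higher at an adjusted or unadjusted p under 0.05 (limma). Of all 12438 genes, 5175 changed there in sparse cells (2444 higher, 2731 lower) and 6850 in dense cells (3394 higher, 3456 lower). Among the 10 genes, the calls that differed were those of Loxl2, at 0.43 (adjusted p = 0.116, limma) in sparse and -0.61 (adjusted p = 0.0307, limma) in dense cells.

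**Figure D1:**
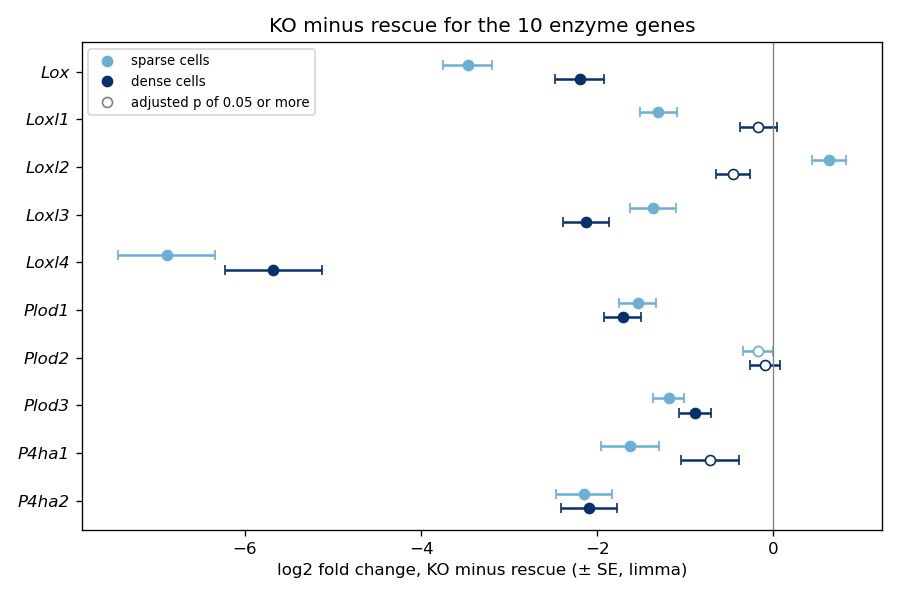
The horizontal axis is the log2 difference, KO minus rescue, with its standard error from limma, for each of the 10 genes in sparse (light) and dense (dark) cells, and open symbols mark an adjusted p of 0.05 or more. Of the 20 points, only that of Loxl2 in sparse cells (0.63) lies above 0, and the points of Loxl4 rest on KO signals not well above background.

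Lox, the founding lysyl oxidase, was among the 10 genes the one with the widest range of group means after Loxl4 (3.47 log2 units). In rescue cells its level on days 1, 2 and 3 was 4.80, 4.87 and 4.65 when sparse and 4.75, 3.94 and 4.97 when dense. In KO cells it was 0.87, 1.53 and 1.5 when sparse and 2.05, 2.59 and 2.41 when dense. Every KO array lay below every rescue array, and the dense KO arrays lay above the sparse ones. Within a density, 58.9% of all genes tested did not overlap between lines in sparse and 67.1% in dense cells. The share of genes whose lines separate across both densities at once was not counted. The difference between lines was -3.47 ± 0.28 (SE; adjusted p = 6.69e-07, limma, n = 3 per group), or 11.1-fold, in sparse cells and -2.20 ± 0.28 (adjusted p = 2.52e-05, limma), or 4.60-fold, in dense cells.

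Loxl4, a lysyl oxidase of the branch with scavenger receptor domains, was well above background on all 6 rescue arrays and on none of the 6 KO arrays, by either of its probes. Its brighter probe was at -0.16, 0.14 and 0.25 in sparse and -1.17, -0.79 and -1.81 in dense rescue cells, and between -8.33 and -5.92 on the KO arrays. Since the KO signal is only a bound, the gene was at least 42.4-fold lower in sparse and at least 24.8-fold lower in dense KO cells. These folds set the mean of the 3 rescue arrays against, on each KO array, the higher of the probe's own signal and the lowest signal of any probe well above background. By the same rule the dimmer probe was at least 14.3-fold lower in sparse and 6.48-fold lower in dense KO cells. The adjusted p-values of the brighter probe (6.77e-07 sparse and 2.74e-06 dense, limma) belong to fitted differences, not to these bounds. Those fitted differences use the KO signals themselves. Both probes passed the filter on dim probes through the rescue arrays only.

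Loxl3, of the same branch, was also lower at both densities. Its level was -2.74, -1.66 and -2.19 in sparse and -1.36, -1.83 and -1.17 in dense rescue cells, against -3.65 to -3.45 and -3.63 to -3.51 in sparse and dense KO cells. The KO arrays lay close together, while the rescue arrays spread widely and overlapped between densities. The line difference was -1.37 ± 0.26 (adjusted p = 0.000841, limma) in sparse and -2.13 ± 0.26 (adjusted p = 1.69e-05, limma) in dense cells. The size of this difference depended on how the background was handled: with a normexp model of the median spot signal and an offset of 50 signal units in place of the processed signal, it was -0.10 (adjusted p = 0.862, limma) and -0.85 (adjusted p = 0.0989, limma).

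Loxl1, which is best known for crosslinking elastin, passed the test between lines in sparse cells and not in dense cells. Its level was 3.82, 3.63 and 4.01 in sparse rescue cells and 2.27, 2.80 and 2.46 in sparse KO cells. In dense cells it was 3.67, 3.09 and 3.65 in the rescue line and 3.34, 3.29 and 3.26 in the KO line. The sparse groups did not overlap, as for 58.9% of all genes tested, and the dense groups did. The difference was -1.31 ± 0.21 (adjusted p = 0.000221, limma) in sparse cells and -0.17 ± 0.21 (95% confidence interval -0.62 to 0.27; adjusted p = 0.484, limma) in dense cells.

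Loxl2, a lysyl oxidase that also acts on basement membrane collagen, had the narrowest range of group means (0.63) and an order of its own. In sparse cells it was at 1.64, 1.34 and 1.04 in the rescue line and 1.83, 2.01 and 2.07 in the KO line. In dense cells it was at 2.00, 2.19 and 1.65 in the rescue line and 1.48, 1.48 and 1.5 in the KO line. The KO line was higher on every array when sparse and lower on every array when dense. Between lines, 58.9% of all genes tested did not overlap in sparse and 67.1% in dense cells. The difference was 0.63 ± 0.19 (adjusted p = 0.0184, limma) in sparse cells and -0.46 ± 0.19 (interval -0.89 to -0.04; adjusted p = 0.0575, limma) in dense cells. The sparse call was lost without the sparse KO array of day 2 (adjusted p = 0.0548) or day 3 (0.0616), without the sparse rescue array of day 3 (0.0631), with the slide as a fixed block (0.52, adjusted p = 0.126, limma), with median scaling (0.33, adjusted p = 0.259, limma) and with normexp (0.54, adjusted p = 0.141, limma). The dense difference passed with quantile scaling (-0.53, adjusted p = 0.0263, limma), with the slide as a random block (-0.47, adjusted p = 0.0414, limma), with the mean of probes (adjusted p = 0.0479, limma), and without the dense rescue array of day 3 (0.0224) or the sparse rescue array of day 1 (0.0452) or 3 (0.0364). Under spike-in scaling the sparse difference turned to -0.92, where the median of all genes was -1.52.

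**Figure D2:**
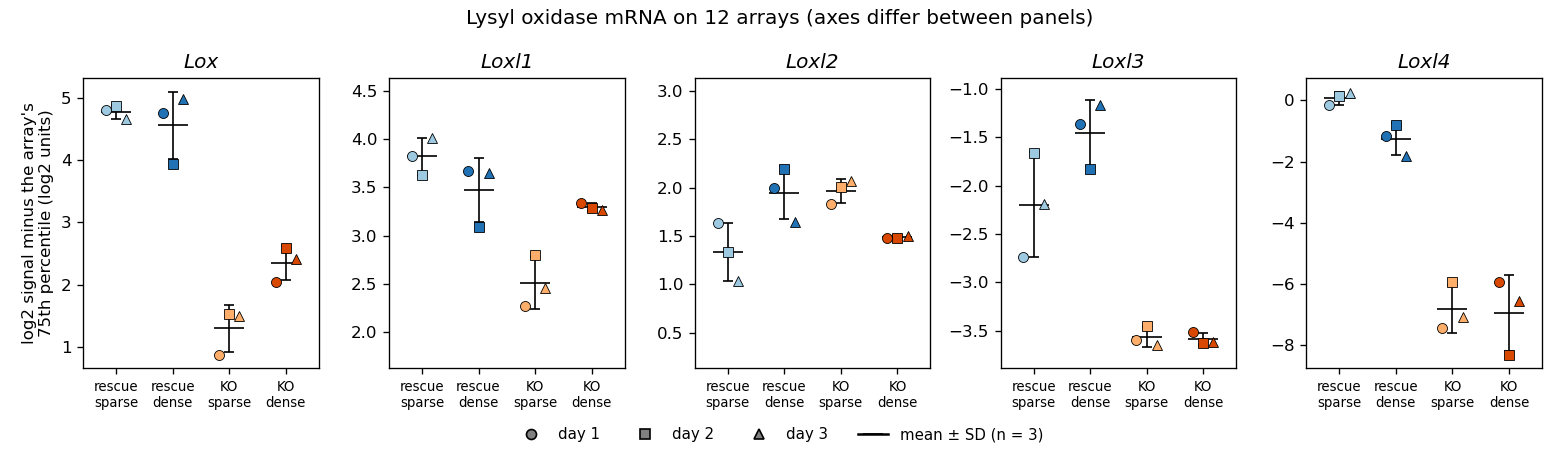
Each panel shows the level of 1 lysyl oxidase gene (vertical axis, log2 signal minus the 75th percentile of the array, with a different range in each panel) on the 12 arrays, with a symbol per day and the mean ± SD of 3 arrays per group. Lox, Loxl3 and Loxl4 are lower on every KO array than on every rescue array, while Loxl2 is higher on the sparse KO arrays than on the sparse rescue arrays and lower when dense.

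Among the hydroxylases, P4ha2 and Plod1 were lower in KO cells by a similar amount at both densities. P4ha2, an alpha subunit of prolyl 4-hydroxylase, was at 4.31, 4.13 and 3.57 in sparse and 4.08, 4.66 and 3.69 in dense rescue cells. In KO cells it was at 1.90, 2.28 and 1.38 when sparse and 2.51, 1.92 and 1.71 when dense. No KO array reached the lowest rescue array. Within a density, the lines did not overlap for 58.9% of all genes tested in sparse and 67.1% in dense cells. The difference was -2.15 ± 0.32 (adjusted p = 0.000164, limma) or 4.44-fold in sparse cells and -2.09 ± 0.32 (adjusted p = 0.000137, limma) or 4.26-fold in dense cells.

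Plod1, which hydroxylates lysines of the collagen helix, ranged from 0.13 to 0.73 on the 6 rescue arrays and from -1.40 to -0.87 on the 6 KO arrays. The difference was -1.54 ± 0.21 (adjusted p = 8.65e-05, limma) in sparse and -1.71 ± 0.21 (adjusted p = 2.32e-05, limma) in dense cells. Plod3, a lysyl hydroxylase that also transfers sugars to hydroxylysine, was at 3.39 to 3.66 in sparse and 2.92 to 3.43 in dense rescue cells, against 2.23 to 2.46 and 2.13 to 2.33 in KO cells. Its difference was -1.19 ± 0.18 (adjusted p = 0.000158, limma) in sparse and -0.89 ± 0.18 (adjusted p = 0.000963, limma) in dense cells. The second Plod3 probe gave -1.28 ± 0.17 and -0.97 ± 0.17. The dense calls of Plod1 (-0.89, adjusted p = 0.1, limma) and Plod3 (-0.06, adjusted p = 0.914, limma) were lost under spike-in scaling, where the median of all genes was 0.90, and that of Plod3 also with normexp (-0.60, adjusted p = 0.105, limma).

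P4ha1, the other alpha subunit, was lower in KO cells when sparse. Its level was 1.40, 1.91 and 2.46 in sparse rescue cells and -0.30, 0.46 and 0.70 in sparse KO cells, a difference of -1.63 ± 0.33 (adjusted p = 0.00138, limma). In dense cells it was 2.10, 1.46 and 2.01 in the rescue line and 0.77, 1.38 and 1.28 in the KO line. These dense groups did not overlap, as was the case for 67.1% of all genes tested, and the difference was -0.72 ± 0.33 (interval -1.43 to 0.00; adjusted p = 0.0767, limma). With the day as a block the same difference had an adjusted p of 0.0394 (limma), and the second P4ha1 probe gave -0.99 ± 0.33 (adjusted p = 0.0231, limma, over 25931 probes).

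Plod2, the lysyl hydroxylase of collagen telopeptides, did not pass the test between lines at either density. The difference was -0.18 ± 0.17 in sparse cells (interval -0.55 to 0.18; adjusted p = 0.392, limma) and -0.09 ± 0.17 in dense cells (interval -0.46 to 0.27; adjusted p = 0.654, limma). These intervals leave room for differences in either direction.

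**Figure D3:**
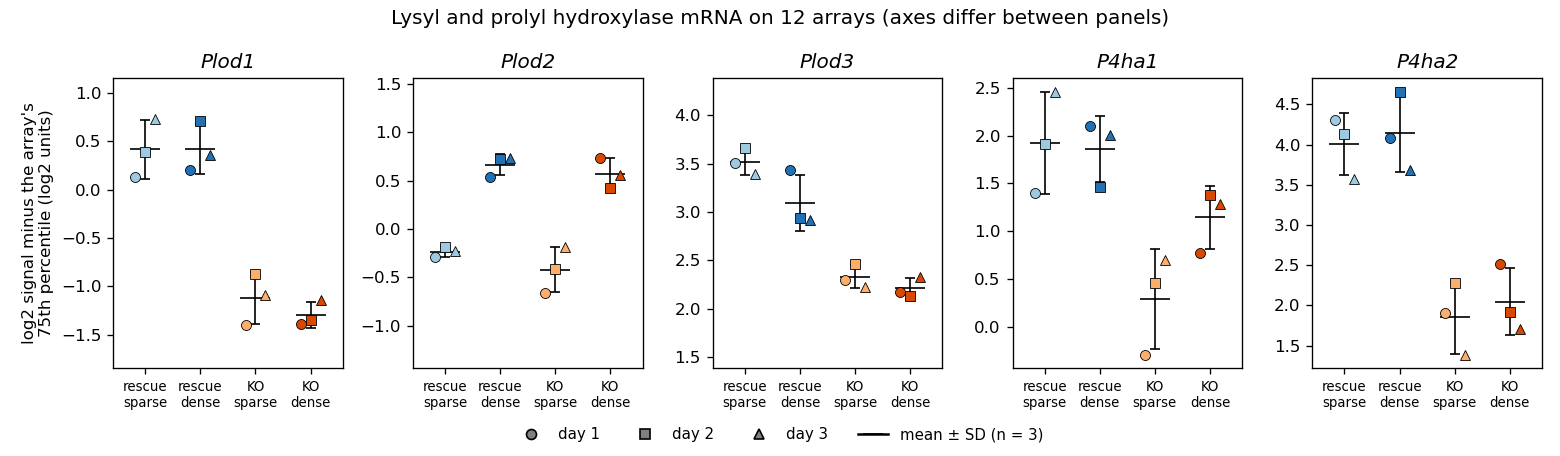
Each panel shows the level of 1 hydroxylase gene (vertical axis, log2 signal minus the 75th percentile of the array, with a different range in each panel) on the 12 arrays, with a symbol per day and the mean ± SD of 3 arrays per group. Plod1, Plod3 and P4ha2 separate by line, as does P4ha1 narrowly (lowest rescue array 1.40, highest KO array 1.38). Plod2 separates by density, at 0.42 to 0.74 on the 6 dense arrays and -0.66 to -0.18 on the 6 sparse arrays. The share of all genes that separate over the 12 arrays in these ways was not counted.

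The arrays came from 5 slides, and the lines shared a slide only on day 2; on days 1 and 3, line and slide cannot be told apart. Within the shared slide, Loxl4 was at least 44.9-fold lower in the sparse and 36.5-fold lower in the dense KO array. The KO minus rescue differences of the other 7 genes lower in sparse cells were -3.34 for Lox, -0.83 for Loxl1, -1.79 for Loxl3, -1.26 for Plod1, -1.20 for Plod3, -1.45 for P4ha1 and -1.85 for P4ha2, and that of Loxl2 was 0.67. In dense cells the other 5 lower genes gave -1.35 for Lox, -1.80 for Loxl3, -2.06 for Plod1, -0.81 for Plod3 and -2.73 for P4ha2. All of these single-slide differences had the sign of the 3-day value, which includes this slide. Among the differences that did not pass, Loxl1 in dense cells was at 0.20, against -0.17 over the 3 days. Loxl2, P4ha1 and Plod2 in dense cells were at -0.71, -0.08 and -0.30, and Plod2 in sparse cells at -0.23. Of 90 within-slide values over all 5 comparisons, 42 lay the pooled SD of the groups or more from the 3-day value, not counting 1 called value that turned its sign. That value was Loxl3 in rescue cells on crowding, at -0.17 on the day 2 slide against 0.75 over the 3 days.

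The second question is how each line responds to crowding. In rescue cells, 3 of the 10 genes rose from sparse to dense (Plod2, Loxl2 and Loxl3) and none fell, while 40.0% of all genes tested changed (19.0% higher). At an unadjusted p under 0.05, 2 were lower (Loxl4 and Plod3). Loxl4 passed as lower with quantile scaling (adjusted p = 0.0276, limma), where 3 genes were higher, and with median scaling (0.0335) and separate fits of the 2 groups (0.00826), where only Plod2 was higher. In KO cells, 3 of the 10 rose (Plod2, Lox and Loxl1) and none fell, with 1 lower (Loxl2) at an unadjusted p under 0.05, and 10.9% of all genes tested changed (5.43% higher). Without day 3, Plod2 alone of the 10 passed in each line (limma), beside 3743 genes changed in rescue and 622 in KO cells. The median log2 response of the 10 genes was -0.03 in rescue cells and 0.09 in KO cells, beside -0.08 and 0.00 over all genes tested.

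Plod2 was the one gene of the 10 that rose with density in both lines. In rescue cells its level was -0.29, -0.18 and -0.23 when sparse and 0.54, 0.72 and 0.74 when dense. In KO cells it was -0.66, -0.41 and -0.19 when sparse and 0.74, 0.42 and 0.56 when dense. All 6 dense arrays lay above all 6 sparse arrays. Within a line, 50.6% of all genes tested did not overlap between densities in rescue and 38.2% in KO cells. The rise was 0.90 ± 0.17 in rescue cells (1.86-fold; adjusted p = 0.00133, limma) and 0.99 ± 0.17 in KO cells (1.99-fold; adjusted p = 0.00523, limma). The difference between these 2 responses was 0.09 ± 0.24 (interval -0.43 to 0.61; adjusted p = 0.818, limma). The calls held with each array left out in turn, while with normexp the KO rise was 0.71 and did not pass (adjusted p = 0.223, limma).

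Lox and Loxl1 rose with density in KO cells and not, by the test, in rescue cells. Lox rose by 1.05 ± 0.28 in KO cells (2.07-fold; adjusted p = 0.0335, limma), where the response in rescue cells was -0.22 ± 0.28 (adjusted p = 0.556, limma). Loxl1 rose by 0.79 ± 0.21 in KO cells (1.73-fold; adjusted p = 0.0319, limma), against -0.35 ± 0.21 in rescue cells (adjusted p = 0.198, limma). In the KO line the dense and sparse groups of both genes did not overlap, as for 38.2% of all genes tested. Both KO calls are close to the threshold. That of Lox was lost without the sparse KO array of day 1 (0.84, adjusted p = 0.130) or day 3 (1.15, 0.0608), or the dense KO array of day 2 (0.93, 0.124) or day 3 (1.02, 0.0773). That of Loxl1 was lost without the sparse KO array of day 1 (0.67, adjusted p = 0.122) or day 3 (0.76, 0.0931), or the dense KO array of day 1 (0.77, 0.0787), day 2 (0.79, 0.0954) or day 3 (0.80, 0.0646).

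Loxl2 responded in rescue cells with a rise of 0.61 ± 0.19 (1.52-fold; adjusted p = 0.0269, limma), and its response in KO cells was -0.48 ± 0.19 (adjusted p = 0.134, limma). The groups did not overlap in either line, as for 50.6% of all genes tested in rescue and 38.2% in KO cells. In rescue cells the lowest dense array was at 1.65 and the highest sparse array at 1.64. Loxl3 rose by 0.75 ± 0.26 in rescue cells (1.68-fold; adjusted p = 0.0363, limma), although the dense and sparse arrays overlapped, and its value within the day 2 slide was -0.17. In KO cells the Loxl3 response was -0.02 ± 0.26. The rescue call of Loxl2 was lost without the sparse array of day 2 (0.60, adjusted p = 0.0605) or day 3 (0.46, 0.0869), or the dense array of day 1 (0.58, 0.0750) or day 2 (0.49, 0.0935). The rescue call of Loxl3 was lost without the sparse array of day 1 (0.47, adjusted p = 0.140) or day 3 (0.75, 0.0718), or the dense array of day 1 (0.70, 0.0973) or day 3 (0.60, 0.122).

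**Figure D4:**
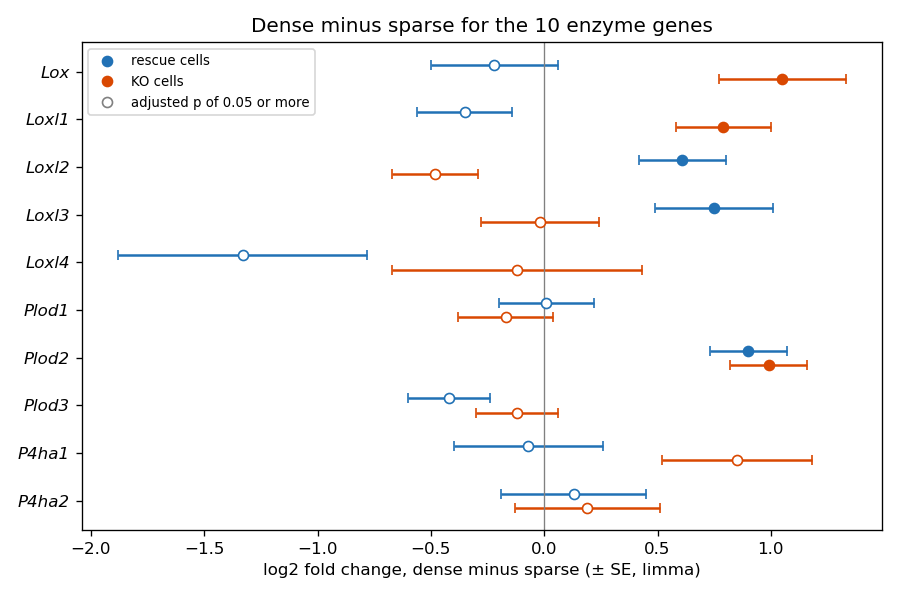
The horizontal axis is the log2 response to density, dense minus sparse, with its standard error from limma, for the 10 genes in rescue and KO cells, and open symbols mark an adjusted p of 0.05 or more. Plod2 lies near 0.90 and 0.99 in the 2 lines, while Lox, Loxl1 and Loxl2 have responses of opposite sign in the 2 lines; the KO point of Loxl4 rests on signals not well above background.

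Of the other genes, Loxl4 had a response of -1.33 ± 0.55 in rescue cells (adjusted p = 0.0748, limma), where its dense and sparse arrays did not overlap, as for 50.6% of all genes tested. Its second probe gave -1.70 ± 0.59 (adjusted p = 0.0435, limma, over 25931 probes). Without the dense KO array of day 1 or 2 the brighter probe passed as well (adjusted p = 0.0492 and 0.0196, limma), still at -1.33. The fit shares 1 estimate of the spread over all groups, so KO signals not well above background enter it. The SD was 0.22 and 0.51 in sparse and dense rescue cells, against 0.80 and 1.24 in KO cells. A fit of the 2 rescue groups alone gave an adjusted p of 0.00826 (limma). Plod3 had a response of -0.42 ± 0.18 in rescue cells (adjusted p = 0.0815, limma), and its second probe -0.86 ± 0.17 (adjusted p = 0.00233, limma). The 2 Plod3 probes thus differ in whether they pass, with the same sign. P4ha1 had a response of 0.85 ± 0.33 in KO cells (interval 0.14 to 1.57, adjusted p = 0.119, limma) and -0.07 ± 0.33 in rescue cells. Its KO groups did not overlap, as for 38.2% of all genes tested. Plod1 and P4ha2 had responses between -0.17 and 0.19 in either line, none of which passed the test.

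Directions of the density responses depend on the scaling. Against the RNA spike-ins, the median response of all genes in KO cells was 3.09 log2 units. There 12380 of the 12438 genes tested were called higher in dense cells, among them all 10 enzyme genes (2.61 to 4.15). The KO signals of Loxl4 in this count were not well above background. In rescue cells the median was 0.64, and 9 of the 10 responses lay above 0, with 3 passing as higher, beside 3112 of 12438 genes. The line difference in dense cells, at a median of 0.90, turned above 0 for Loxl1, Loxl2, P4ha1 and Plod2, none of which passed. The 75th percentile of sparse KO arrays was 294 to 688 signal units and that of dense KO arrays 951 to 1590. The responses above are therefore changes relative to the rest of each array.

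The third question is whether the 2 lines respond to density differently, which was tested as the KO response minus the rescue response. It passed for 3 of the 10 genes, beside 20.7% of all genes tested (11.3% higher, 9.46% lower). The value was 1.27 ± 0.39 for Lox (adjusted p = 0.0395, limma) and 1.14 ± 0.29 for Loxl1 (adjusted p = 0.0172, limma), whose deficit in KO cells was smaller when dense. It was -1.09 ± 0.27 for Loxl2 (adjusted p = 0.0163, limma), whose line difference changed sign between densities. Without the arrays of day 3 none of the 10 passed (3 at an unadjusted p under 0.05, limma), with values of 1.61 for Lox (adjusted p = 0.0908), 1.12 for Loxl1 (0.108) and -1.04 for Loxl2 (0.0581). The calls of Loxl1 and Loxl2 held with each of the 12 arrays left out in turn. That of Loxl2 was lost with median scaling (-0.84, adjusted p = 0.0819, limma), and with normexp both were lost (adjusted p = 0.131 for Loxl1 and 0.183 for Loxl2, limma). That of Lox was lost with 8 of the 12 left out, namely the sparse KO array of day 1 (1.06, adjusted p = 0.0920) or day 3 (1.37, 0.0518), the dense KO array of day 2 (1.15, 0.0905) or day 3 (1.24, 0.0773), the dense rescue array of day 2 (0.96, 0.0706), and the sparse rescue arrays of days 1, 2 and 3 (1.26, 0.0694; 1.22, 0.0766; 1.33, 0.0535).

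The remaining 7 genes did not pass the test of the difference. Loxl4 has no measured response in KO cells, where its signal was not well above background at either density, so its difference is not given. P4ha1 (0.92 ± 0.46) and Loxl3 (-0.76 ± 0.36) had values of 0.76 log2 units or more in size, with intervals of -0.09 to 1.93 and -1.55 to 0.03. Without the sparse rescue array of day 2 the Loxl3 value was -1.03 (adjusted p = 0.0470, limma). Plod1, Plod2, Plod3 and P4ha2 had values between -0.18 and 0.30.

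Between genes, the orders of the group means differed. For Lox, P4ha1, Loxl1, Loxl4 and Plod3 sparse rescue cells were highest, for P4ha2, Plod1, Loxl3 and Plod2 dense rescue cells, and for Loxl2 sparse KO cells. The 2 rescue groups overlapped for all of the 10 genes except Loxl4, Plod2 and Loxl2, while 50.6% of all genes tested did not overlap there. The 2 KO groups overlapped for all except Lox, Loxl1, P4ha1, Plod2 and Loxl2, while 38.2% of all genes tested did not. The dense KO group overlapped the dense rescue group for Loxl1 and Plod2. Across the 12 arrays, which share lines, densities and slides, the correlation between pairs of the 10 genes ran from -0.61 (Loxl1 and Loxl2) to 0.96 (Loxl4 and Plod1).

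For the 4 genes with the widest range of group means, the genes outside the set with the most similar levels over the 12 arrays, by Pearson correlation among 12325 genes, were the following. Those of Loxl4 were Slc14a1 (r = 0.991), Slco3a1 (0.989) and Has2 (0.988). Those of Lox were Chst14, Gnai2 and Olfml3 (each 0.984), and those of P4ha2 were Aldh5a1 (0.984) and H13 (0.983). Those of Loxl3 were Trim30d (0.976), Fez1 (0.972) and Flt3l (0.971). The KO levels of Loxl4 in these correlations were not well above background. The 12 arrays fall into 4 groups, so these values hold the group differences as well as the spread within groups.

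The other genes of collagen modification included both lower and higher ones. The counts of this and the following lists stand beside the shares of all genes tested that changed between lines. Those shares were 48.8% in sparse cells (23.2% higher, 25.6% lower) and 61.6% in dense cells (31.9% higher, 29.7% lower). Of 12 further hydroxylation and glycosylation genes tested, 7 passed in sparse KO cells, with 5 lower and 2 higher (median -0.34), and 3 in dense KO cells, with 2 lower and 1 higher (median 0.00). P4ha3, the third alpha subunit, was above background on no KO array and at least 2.60-fold lower when sparse and 2.74-fold lower when dense. Its adjusted p-values (1.12e-05 sparse and 1.22e-05 dense, limma) belong to fitted differences that use those KO signals, not to these bounds. The P4ha3 probe passed the filter on dim probes through the rescue arrays only. P3h3, of the prolyl 3-hydroxylase family, was lower by -1.51 ± 0.15 and -1.72 ± 0.15. P3h2, a prolyl 3-hydroxylase, was lower in sparse KO cells (-1.54 ± 0.23) and had a value of -0.04 ± 0.23 in dense cells. It fell in rescue cells on crowding (-2.15 ± 0.23), and the 2 responses differed (1.5 ± 0.33, adjusted p = 0.00859, limma). Colgalt1, which adds galactose to hydroxylysine, was higher by 0.76 ± 0.21 and 1.43 ± 0.21. P4hb, the beta subunit of the enzyme, named here after its values were seen, had values of 0.23 ± 0.19 and 0.15 ± 0.19 and did not pass.

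Genes of collagen folding and export showed no common direction. Of 13 tested, 3 were lower and 2 higher in sparse KO cells (median 0.09), and 1 was lower and 4 were higher in dense KO cells (median 0.17). The widest difference was in Creb3l1, a transcription factor that drives collagen secretion, at -2.43 ± 0.28 (adjusted p = 1.53e-05, limma) in sparse and -1.08 ± 0.28 (adjusted p = 0.00464, limma) in dense cells. Its density responses also differed between lines, by 1.34 ± 0.39 (adjusted p = 0.0306, limma). Fkbp7, a prolyl isomerase of the endoplasmic reticulum, was higher at both densities (1.07 ± 0.17 and 0.53 ± 0.17).

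The substrates of the enzymes went in different directions. Of 10 fibrillar collagen genes tested, 8 were lower in sparse KO cells (median -1.61) and 9 in dense KO cells (median -1.78), none was higher at adjusted or unadjusted p under 0.05, and the remaining 2 and 1 did not pass. Col27a1 was at least 8.07-fold and 19.2-fold lower and Col5a3 lower by -3.56 ± 0.24 and -4.88 ± 0.24. The Col27a1 probe was well above background on no KO array and passed the filter on dim probes through the rescue arrays only. Of 8 genes of elastin and its assembly tested, 6 were higher and 2 lower in sparse KO cells (median 1.86), and 5 were higher, 2 lower and 1 did not pass in dense KO cells (median 2.87). Fbn2, which encodes fibrillin-2, was at least 78.8-fold and 75.7-fold higher. Mfap4, of microfibrils, was at least 145-fold higher in dense KO cells, and Emilin1, of elastic fibres, was lower by -3.60 ± 0.42 and -3.97 ± 0.42. The probes of Fbn2 and Mfap4 passed the filter on dim probes through the KO arrays only. Eln itself, the elastin gene, was higher in KO cells at both densities (adjusted p = 0.0268 and 1.74e-06, limma), with no fold given because only 2 of 3 sparse and 1 of 3 dense rescue arrays were well above background. In KO cells, where all arrays were, Eln rose with density (3.12 ± 0.48, adjusted p = 0.00376, limma).

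Of 5 procollagen processing genes tested, 4 were lower in KO cells at both densities and none higher, adjusted or not (medians -2.39 and -2.48). Pcolce2, an enhancer of C-propeptide removal, was at least 177-fold and 33.8-fold lower. It is among the 4, was well above background on no KO array, and passed the filter on dim probes through the rescue arrays only. Adamts2, the N-propeptidase, was lower by -4.11 ± 0.29 and -4.89 ± 0.29. Bmp1, which removes C-propeptides and also activates Lox, was lower by -1.35 ± 0.23 and -2.48 ± 0.23.

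**Figure D5:**
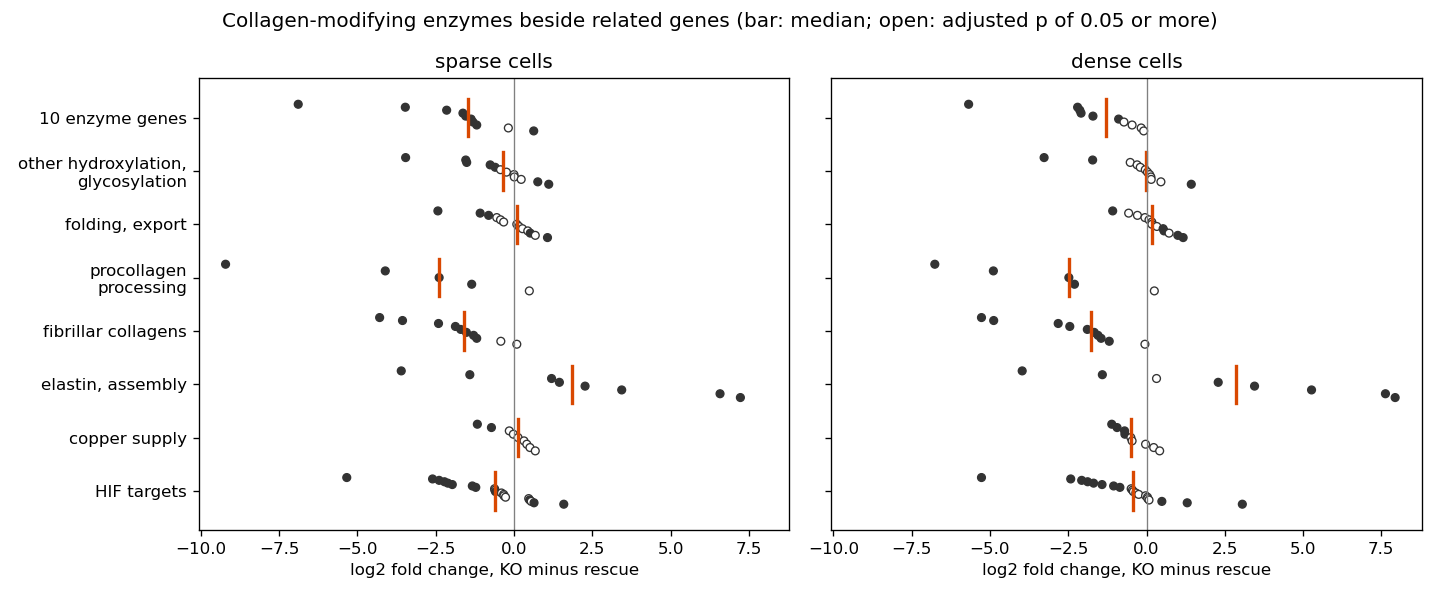
The horizontal axis is the log2 difference, KO minus rescue, in sparse (left) and dense (right) cells; each point is a gene, open where the adjusted p is 0.05 or more, and the bar is the median of its list. The medians are -1.45 and -1.30 for the 10 enzyme genes, -1.61 and -1.78 for the fibrillar collagens, and 1.86 and 2.87 for the elastin genes; points of genes not above background in one line are fitted values, not bounds.

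Genes that supply copper or cofactors changed in part. Of 9 copper genes tested, 2 were lower in sparse and 4 in dense KO cells, and none was higher (1 in sparse and 0 in dense cells at an unadjusted p under 0.05, limma). Cox17 and Commd1, of copper handling, were the 2 lower at both densities, with Cox17 at -1.17 ± 0.17 and -1.11 ± 0.17. Atp7a, the pump that loads copper onto lysyl oxidases in the secretory pathway, had a value of 0.32 ± 0.20 in sparse cells and was lower in dense KO cells (-0.94 ± 0.20, adjusted p = 0.00125, limma). It rose on crowding in rescue cells (1.16 ± 0.20), and its responses differed between lines (-1.26 ± 0.28, adjusted p = 0.00849, limma). Of 8 genes of ascorbate and 2-oxoglutarate supply tested, 4 were lower and 1 higher in sparse KO cells and 2 lower and 1 higher in dense KO cells. The higher gene was Slc2a3, a glucose transporter that also carries dehydroascorbate, at least 352-fold and 445-fold. The Slc2a3 probe was well above background on no rescue array and passed the filter on dim probes through the KO arrays only. Idh1, which makes 2-oxoglutarate in the cytosol, was lower by -0.80 ± 0.21 and -1.75 ± 0.21.

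HIF targets outside the 10 genes did not move as one. Of 20 tested, 12 passed in sparse KO cells, with 9 lower and 3 higher (median -0.60), and 11 in dense KO cells, with 8 lower and 3 higher (median -0.44). Over all genes tested, 48.8% passed in sparse and 61.6% in dense cells. Bnip3, a mitophagy receptor, was lower by -5.34 ± 0.28 and -5.27 ± 0.28, and Pdk1, which restrains pyruvate dehydrogenase, by -2.60 ± 0.25 and -0.85 ± 0.25. Car9, a carbonic anhydrase, was higher by 1.59 ± 0.41 and 3.06 ± 0.41. Of 5 HIF regulators tested, Hif1an, the asparaginyl hydroxylase that restrains HIF, was higher (1.21 ± 0.28 and 1.36 ± 0.28), and the other 4 did not pass at either density.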

How the data were processed

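RNA of 12 cultures was measured on one-colour Agilent mouse arrays. The deposited scanner files hold intensity values that the authors obtained with Feature Extraction (version 10.5.1.1 per the file headers, 10 per the submitters' processing notes). The column used is already background-subtracted by that software. Of 43379 spots that are not controls, those called non-uniform or outliers (79 to 265 per array) were left out, and spots of a probe were averaged, giving 41174 probes. Genes were named by RefSeq identifier through the RefSeq table given with the data, which gave 24375 probes 1 gene and left 16799 unnamed. The log2 of each intensity minus that of the 75th percentile of its array was used. A probe was kept where every array of some group showed it well above background (25931 probes), and the brightest kept probe stood for its gene. The number of arrays limits the precision.

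Group means were fitted over all 12 arrays with limma 3.58.1 in R 4.3.3, without covariates, and p-values were adjusted by Benjamini-Hochberg over 12438 genes; changed means an adjusted p under 0.05. The fit was tested on simulated data. The labels give each replicate number as a shared day, so the numbers pair the cultures; deviations of same-day arrays correlated at -0.037 to 0.296, above 0.1 in 11 of 18 pairs. All 10 enzyme genes are named, together with the 2 called genes of widest rise and fall of each related list in each comparison, and the 3 most similar genes of 4 members, of which 1 gene is not reported here. The members and lists were chosen with earlier results of these data known.

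Alternatives were quantile, median and spike-in scaling, a normexp background correction, other filters and probe rules, day or slide as a block, fits of 2 groups, single slides, each array left out, and the deposited value table. That table, as deposited by the authors, holds log2 values whose normalization is not given in the sources used here; its column medians are 8.38 to 8.39, and it is complete for 27572 probes. Normexp used the median signal, as the mean signal is not in the files used here. It and the use of days 1 and 2 alone, of the table or the scanner files, were chosen after seeing the data.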

Additional observations from a re-analysis of the deposited data

Results flagged for a closer look

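For 3 of the 10 genes, beside 20.7% of all genes tested, the response to density differed between the lines by the test of that difference (limma, over 12438 genes). The KO response minus the rescue response was 1.27 for Lox (adjusted p = 0.0395), from 1.05 in KO and -0.22 in rescue cells. It was 1.14 for Loxl1 (adjusted p = 0.0172), from 0.79 and -0.35, and -1.09 for Loxl2 (adjusted p = 0.0163), from -0.48 and 0.61. Day by day, the dense KO array lay above the sparse KO array for Lox and Loxl1 and below it for Loxl2 on all 3 days. In rescue cells the response on days 1, 2 and 3 was -0.04, -0.94 and 0.32 for Lox, so its sign varied, -0.15, -0.54 and -0.36 for Loxl1, and 0.36, 0.85 and 0.61 for Loxl2. Without the arrays of day 3 none of the 3 passed (adjusted p = 0.0581 to 0.108, limma), with values of the same sign. The Lox call was also lost in 8 of the fits with 1 array left out. With normexp all 3 calls were lost (adjusted p = 0.0934 to 0.183, limma). Under spike-in scaling, which moved the median of this difference over all genes by 2.38, the value of Loxl2 was 1.28. Groups of 3 arrays were not searched for single outlying arrays.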

How the results depend on the processing

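Over the 10 genes and 5 comparisons, 563 of 600 values with 1 array left out kept their side of the threshold, and 530 of 585 under the other settings, spike-in scaling and the deposited table as it stands aside. No value called at first turned its sign there, but 20 and 21 values that were not called did, 4 of them in KO cells on crowding with median scaling (Loxl3, Loxl4, Plod1 and Plod3). With 1 array left out, the number of enzyme genes changed ran from 8 to 9 (sparse, KO against rescue), 6 to 7 (dense), 1 to 4 (density in rescue cells), 1 to 3 (density in KO cells) and 2 to 3 (difference of responses). The 1 in rescue cells came without the sparse rescue array of day 3, and the 1 in KO cells without the sparse KO array of day 1 or 3 or the dense KO array of day 2 or 3. Genes changed ran from 5326 to 6239, 7023 to 7832, 4243 to 5157, 514 to 1599 and 1967 to 2572; for density in KO cells the count was 514 without the dense KO array of day 2, 881 without that of day 1, and 601 and 672 without the sparse KO arrays of days 1 and 3, against 1358. The day as a replicate block moved the P4ha1 difference in dense cells past the threshold (-0.72, adjusted p = 0.0394, limma) and changed no other call of the 10 genes.

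Spike-in scaling shifted the all-gene median by -1.55, 0.82, 0.72, 3.09 and 2.38 in these comparisons, and median scaling by -0.31, -0.05, 0.00, 0.25 and 0.25. With spike-ins the enzyme genes changed were 10 for density in KO cells and 9 for the difference of responses (all higher), and genes changed 9465 in sparse cells (581 higher, 8884 lower, against 2890 and 3179), 12382 in KO cells and 10805 for the difference. Values called in either fit that turned with spike-ins were Loxl2 in sparse cells (-0.92); in KO cells on crowding Loxl2 (2.61), Loxl3 (3.08), Loxl4 (2.98, from signals not well above background), Plod1 (2.92) and Plod3 (2.98); and for the difference Loxl2 (1.28), Loxl3 (1.61) and Plod1 (2.19). Another 8 values, called in neither, turned with spike-ins, 4 in dense cells and 4 in rescue cells on crowding. In dense cells spike-ins gave 5463 higher and 1485 lower genes, against 3972 and 3695. For density in rescue cells they gave 3112 higher and 320 lower, against 2366 and 2612.

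Median scaling gave 1785 higher and 4048 lower genes in sparse cells, and in KO cells on crowding 1227 and 290, against 676 and 682; quantile scaling gave 948 and 554 there. For the difference of responses median scaling gave 1694 and 696, against 1402 and 1177.

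With normexp, which changed the signal column and offset too, the enzyme genes changed were 7 (sparse), 4 (dense), 1, 0 and 0 (with 4 at an unadjusted p under 0.05 in each of the last 2, limma), and genes changed 3355, 5028, 2321, 48 and 567. The mean of a gene's probes gave 5 enzyme genes for density in rescue cells (3 higher, 2 lower), and no filter on dim probes gave 1 in KO cells and 907 genes. The slide as a fixed block lost Loxl2 in sparse cells (0.52) and Loxl3 in rescue cells (0.75, adjusted p = 0.0673); within the day 2 slide the latter was -0.17. Fits of 2 groups gave no value for the difference of responses.

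With the deposited table as it stands, limma called 0 enzyme genes in all 5 comparisons (0, 0, 1, 1 and 0 at an unadjusted p under 0.05) and 0, 0, 0, 1 and 0 genes (83, 61, 903, 955 and 32 unadjusted), and the Loxl2 value in sparse cells was -0.22. Without day 3, an alternative added after seeing the data, the scanner files gave 1 enzyme gene for density in rescue cells, 1 in KO cells and 0 for the difference (3 unadjusted, limma), with 622 genes changed in KO cells and 1214 for the difference. Days 1 and 2 of that table, chosen after seeing the data, gave 1 enzyme gene for density in KO cells and 1 for the difference, with 775 and 1402 genes. The 1 for the difference was Loxl4, whose KO signals were not well above background. Lox, Loxl1 and Loxl2 did not pass there (adjusted p = 0.0827, 0.0897 and 0.0795, limma). Where no construction of the alternative shows it, the cause was not tested. Signals near background limit Loxl4 in KO cells and Loxl3, whose difference shrank with normexp and its offset of 50.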

Other observations

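The day 3 columns of the deposited value table follow the scanner arrays of the other line, which bears on anyone who uses that table for these genes. In that table as it stands, the sparse difference of Lox between lines was -1.28, against -3.47 in the scanner files. In the scanner files the day 3 arrays match days 1 and 2 of the line in their label: Wt1 and Upk3b were well above background on 3 of 3 KO arrays and 0 of 3 rescue arrays at each density. In the table, the day 3 columns go against the columns of days 1 and 2 that carry the same line label.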
